A study of Mus musculus with 4 samples.

Results

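The smooth muscle contractile program was followed as 32 named genes that code for the actin and myosin of smooth muscle, the proteins that regulate them, the contraction receptor Oxtr, the transcription factors Srf and Myocd, and the adhesion proteins that anchor the filaments. The genes were taken by symbol, and all 32 were present among the 52636 genes of the count tables. Their UMIs (unique molecular identifiers, each marking 1 captured RNA molecule) were counted per cell with 10x Genomics 3′ chemistry v3.1 in mammary cells sorted for the epithelial surface protein EpCAM. The 4 groups of mice, all 6 months old and all carrying pellets of estradiol (E2) and progesterone (P4), gave 1 library each. The wild-type (WT) vehicle group and the Esr1 Y541S vehicle group received the vehicle MCT by mouth each day for 4 days. The WT giredestrant group and the Y541S giredestrant group received 30 mg/kg giredestrant, a drug that blocks the estrogen receptor and leads to its breakdown, on the same schedule. Y541S is a substitution in the ligand-binding domain of the estrogen receptor. The labels do not say how the allele was delivered, in which cells it was expressed or how many animals a library pooled. With 1 library per group no test between groups is possible: every interval below covers counting error only, and the 4 comparisons share libraries with each other.

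Basal cells of the mammary gland are myoepithelial: they wrap the ducts and alveoli and contract to move milk. Oxytocin binds its receptor, calcium rises, and calmodulin activates myosin light chain kinase (Mylk), which phosphorylates the regulatory light chain (Myl9) so that myosin (Myh11) pulls on smooth muscle actin (Acta2, Actg2). Myosin phosphatase, with its targeting subunits Ppp1r12a and Ppp1r12b and its inhibitor Ppp1r14a, reverses that step, and the cyclic GMP kinase Prkg1 favours relaxation. Serum response factor (Srf), with the coactivator myocardin (Myocd) or the actin-sensing MRTF proteins, drives many of these genes through a DNA element called the CArG box.

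Cells were placed in classes by summed marker UMIs per 10000 UMIs, none of which is a member. Basal cells held 10 or more of Krt5 plus Krt14 and fewer than 10 of Esr1, Prlr, Areg and Foxa1 together. Hormone-sensing cells held 10 or more of the latter and were split at 3 of Krt14, and secretory cells held 10 or more of Wfdc18, Csn3, Elf5 and Kit together. Of 25950 cells kept, 12595 were basal, 5563 hormone-sensing without Krt14, 1305 hormone-sensing with Krt14 and 4740 secretory. Although the source label of every library reads mature luminal cells, basal cells made up 33.5% to 68.3% of each library. The 10 basal markers, Krt14 and Krt17 among them, summed to 8195 to 9300 CPM in basal cells (a class's summed counts scaled to the same total in every library). These 10 include the gate genes Krt5 and Krt14, so part of this sum follows from the gate. Median depth per cell ranged from 6268 UMIs in the Y541S giredestrant library to 21927 in the WT giredestrant library. Pairs of libraries shared 7 to 23 cell barcodes, at most 0.319% of the smaller library. Markers of vessels and other muscle were low in basal cells. The 11 pericyte and vascular smooth muscle markers summed to 13.9 to 47.7 CPM, with Rgs5 between 2.92 and 24.0, and the 7 skeletal muscle markers to 1.62 to 2.12 CPM. The 6 fibroblast markers summed to 125 to 384 CPM, of which Dcn alone gave 114 to 372.

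The CArG box was looked for in the 250 bases upstream of each transcription start, on both strands, because Srf, which binds it, is itself a member. RefSeq promoter sequences (GRCm38.p6) were given for 28 of the 32 members, in 34 promoters, and not for Actg2, Myh11, Tagln and Myocd. A complete box, CC and GG around a run of A and T letters, was present in 5 of the 34 promoters (14.7%) and in 1.47% of all 32851 promoters of the table. With 1 letter allowed to differ, 11 member promoters (32.4%) and 18.6% of all promoters held one. The windows below run from 5′ to 3′ on the gene's strand, with boxes in capitals. The first 5 hold a complete box, Srf 2 of them, and in Acta2 and Tpm1, which code for an actin and a tropomyosin, the capitals mark boxes with 1 letter changed.
Myl9 (chr2:156775253-156775362, plus strand): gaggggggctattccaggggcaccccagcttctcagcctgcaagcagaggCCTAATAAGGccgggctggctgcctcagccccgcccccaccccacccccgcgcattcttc
Myl6 (chr10:128493010-128493109, minus strand): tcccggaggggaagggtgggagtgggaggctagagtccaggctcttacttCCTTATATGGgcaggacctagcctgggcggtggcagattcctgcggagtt
Vcl (chr14:20929148-20929230, plus strand): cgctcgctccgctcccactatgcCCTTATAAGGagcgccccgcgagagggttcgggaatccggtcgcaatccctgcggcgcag
Srf (chr17:46556185-46556294, minus strand): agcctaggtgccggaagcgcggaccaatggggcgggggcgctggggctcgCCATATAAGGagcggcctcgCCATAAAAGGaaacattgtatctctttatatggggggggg
Fhl1 (chrX:56779531-56779640, plus strand): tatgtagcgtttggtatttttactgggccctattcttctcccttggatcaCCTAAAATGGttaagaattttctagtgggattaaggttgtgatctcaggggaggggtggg
Acta2 (chr19:34255398-34255507, minus strand): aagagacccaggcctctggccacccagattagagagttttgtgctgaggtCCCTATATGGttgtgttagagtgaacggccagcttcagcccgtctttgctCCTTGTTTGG
Tpm1 (chr9:67049375-67049463, minus strand): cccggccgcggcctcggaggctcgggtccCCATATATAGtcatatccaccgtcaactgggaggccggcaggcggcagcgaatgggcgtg
The box lay 50 to 41 bases before the start in Myl6, 82 to 73 and 62 to 53 in Srf, 102 to 93 in Fhl1, 161 to 152 in Myl9 and 227 to 218 in Vcl. The boxes with 1 letter changed lay 84 to 75 and 34 to 25 bases before the start in Acta2, and 221 to 212 in Tpm1, where another, at 80 to 71, lies outside the window shown. A match describes letters only and says nothing of whether Srf binds there.

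Basal cells expressed nearly the whole program. The 32 members took 2.71% of all basal UMIs in WT vehicle, 2.26% in WT giredestrant, 2.92% in Y541S vehicle and 2.55% in Y541S giredestrant. In the same order, hormone-sensing cells without Krt14 gave 0.256%, 0.229%, 0.261% and 0.287%. Acta2, smooth muscle alpha actin (chromosome 19, 34241090 to 34255590, minus strand, GENCODE on GRCm38), was counted at 7003 CPM in WT vehicle, 5681 in WT giredestrant, 7795 in Y541S vehicle and 6179 in Y541S giredestrant. It was lower in both giredestrant libraries than in their vehicle libraries, but by less than 1.5-fold. Des, Myocd and Fhl1 were nearly absent from basal cells of every library. Desmin (Des), the intermediate filament of visceral and skeletal muscle, was at 0.68 to 1.06 CPM, Myocd at 0.51 to 2.50 and the LIM protein Fhl1 at 0.37 to 1.68. These rest on 127, 202 and 93 UMIs over the 4 libraries, and the next lowest member, the potassium channel subunit Kcnmb1, on 2567.

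**Figure D1:**
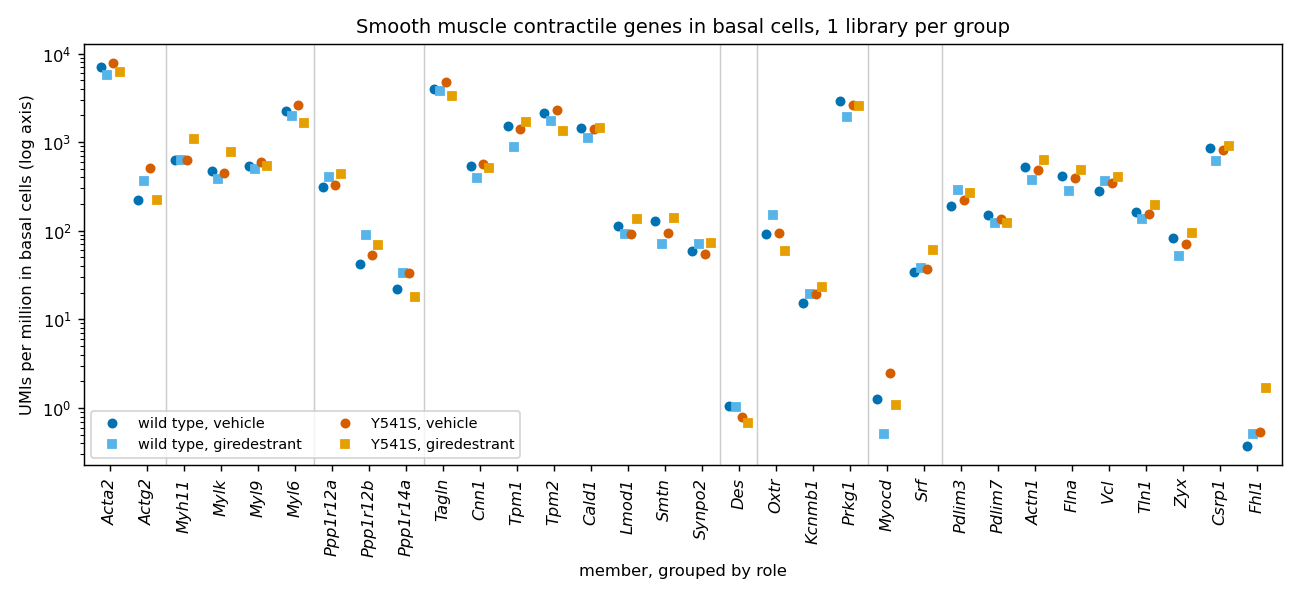
Level of each of the 32 members in basal cells, in CPM on a log axis, with 1 point per library and members grouped by role. Acta2 sits between 5681 and 7795 in all 4 libraries, whereas Des, Myocd and Fhl1 stay at or below 2.50.

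Ratios between libraries are given as log2 relative to the median gene with 20 or more counts over both libraries, and a gene is called higher or lower where it passes 1.5-fold on that scale. In basal cells of wild-type mice, 9 of the 32 members were lower with giredestrant and 1 was higher. Of all 17494 genes measured in that comparison 14.7% were lower and 14.8% higher, so members were called lower in 28.1% and higher in 3.12%. The median member stood at -0.38. By role, the lower members were 3 of 8 thin filament genes, 4 of 9 adhesion genes, 1 of 3 receptor and signalling genes (Prkg1) and 1 of 2 transcription factors (Myocd), with 0 of 2 actins, 0 of 4 myosin genes and 0 of 3 phosphatase genes. Scaled by the class total alone, which does not remove a median shift of 0.15, the split was 5 lower and 5 higher. Cnn1, Actn1, Flna and Csrp1 then missed the threshold, and Actg2, Oxtr, Ppp1r14a and Pdlim3 passed it upwards.

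Smoothelin (Smtn), an actin-binding protein of contractile smooth muscle, was at 130 CPM in WT vehicle, 70.8 in WT giredestrant, 94.7 in Y541S vehicle and 140 in Y541S giredestrant. The WT giredestrant library was the lowest, with a relative log2 ratio of -1.02 (95% counting interval -1.11 to -0.94) against its vehicle library. Tropomyosin 1 (Tpm1), which lies along the actin filament and gates myosin, was at 1532, 876, 1392 and 1674 CPM in the same library order. Its ratio in wild type was -0.96 (-0.98 to -0.93), and the WT giredestrant library again stood below all the others. Zyxin (Zyx), a focal adhesion protein that senses tension, was at 82.6, 51.3, 71.3 and 93.8 CPM, a ratio of -0.84 (-0.94 to -0.74). Prkg1, whose gene spans 1201 kb of chromosome 19, was at 2918, 1932, 2652 and 2580 CPM and at -0.74 (-0.76 to -0.73) in wild type. The actin crosslinker filamin A (Flna) was at 416, 281, 395 and 490 CPM, with a ratio of -0.72 (-0.76 to -0.68). Alpha-actinin 1 (Actn1) and the LIM protein Csrp1 had ratios of -0.63 each, and calponin (Cnn1) lay on the threshold at -0.59. Myocd had the lowest ratio, -1.45 (-2.57 to -0.48), from 10 UMIs against 71. The only member called higher was the phosphatase targeting subunit Ppp1r12b, at 42.1, 88.6, 53.1 and 69.5 CPM, with a ratio of 0.92 (0.83 to 1.01).

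Other features of the WT giredestrant library moved with this comparison. Of 10 dissociation stress genes 7 were higher and 1 lower in its basal cells. Fos, an immediate early gene, was at 734 CPM in WT vehicle, 1722 in WT giredestrant, 554 in Y541S vehicle and 630 in Y541S giredestrant. The non-muscle cytoskeleton, represented by 15 genes, had 5 lower and 0 higher, with beta actin (Actb) at 5167, 3758, 5380 and 4770 CPM. The part of either in the members' difference was not tested.

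In basal cells of Y541S mice, giredestrant was associated with 7 lower and 4 higher members (21.9% and 12.5%). Of the 16927 genes measured 12.2% were lower and 14.4% higher. The median member stood at 0.16. Gamma smooth muscle actin (Actg2), the enteric actin, was at 220 CPM in WT vehicle, 360 in WT giredestrant, 514 in Y541S vehicle and 223 in Y541S giredestrant. The Y541S vehicle library was the highest of the 4, and its giredestrant library fell back to the level of WT vehicle, a relative log2 ratio of -1.29 (-1.33 to -1.24). Oxtr, the receptor that starts milk ejection, was at 91.8, 150, 95.1 and 58.4 CPM. Its 2 vehicle libraries were alike and the 2 giredestrant libraries lay on opposite sides of them, at 0.56 (within the threshold) in wild type and -0.79 (-0.88 to -0.70) in Y541S. Ppp1r14a, the phosphatase inhibitor CPI-17, was at 21.9, 33.2, 33.5 and 17.9 CPM, a ratio of -0.99 (-1.15 to -0.83) in Y541S. Tropomyosin 2 (Tpm2) was at 2127, 1722, 2332 and 1351 CPM and at -0.87 (-0.89 to -0.85). The essential light chain Myl6 stood at -0.78, transgelin (Tagln) on the threshold at -0.60, and Myocd at -1.29 (-1.97 to -0.66) from 27 UMIs against 94.

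The 4 members higher with giredestrant in Y541S basal cells included the motor and its kinase. Smooth muscle myosin heavy chain (Myh11) was at 630, 637, 634 and 1097 CPM, so that 3 libraries were nearly equal and the Y541S giredestrant library stood alone, at 0.71 (0.68 to 0.73) against its vehicle. Mylk was at 478, 379, 449 and 772 CPM and at 0.70 (0.67 to 0.73). Srf was at 34.0, 38.3, 36.8 and 60.3 CPM and at 0.63 (0.52 to 0.73). Fhl1 had a ratio of 1.58 (0.78 to 2.42) from 42 UMIs against 20. With each cell thinned to 2000 UMIs the calls of Srf, Fhl1 and Myocd were lost, and Srf was also lost with no count filter. Among measures that differed in the Y541S giredestrant library, the nuclear RNA Malat1 was at 14342, 9904, 8667 and 17021 CPM in basal cells. Ribosomal protein genes took 16.1%, 15.9%, 17.0% and 12.7% of UMIs. Over all genes split by span into 5 groups of similar size, the median relative ratio in this comparison went from -0.15 in the shortest group to 0.09 in the longest. Myh11 spans 96.8 kb, Mylk 257 kb, Tpm2 9.05 kb and Tagln 6.44 kb. Set against the median gene of the same span group, 10 of the 11 calls remained and Tagln was lost. Summed markers of other cell types were also highest in this library's basal cells for hormone-sensing cells (111 CPM, against 50.7 to 54.3 in the other libraries), pericytes and vascular smooth muscle (47.7, against 13.9 to 23.3), fibroblasts (384, against 125 to 252), endothelium (19.7, against 3.19 to 5.20) and immune cells (152, against 52.4 to 123). The immune markers were split: against Y541S vehicle, Cd74 was higher while Tyrobp and Lyz2 were lower. With cells holding 2 or more pericyte marker UMIs left out, all 11 calls remained. The part of the other measures in the members' difference was not tested.

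**Figure D2:**
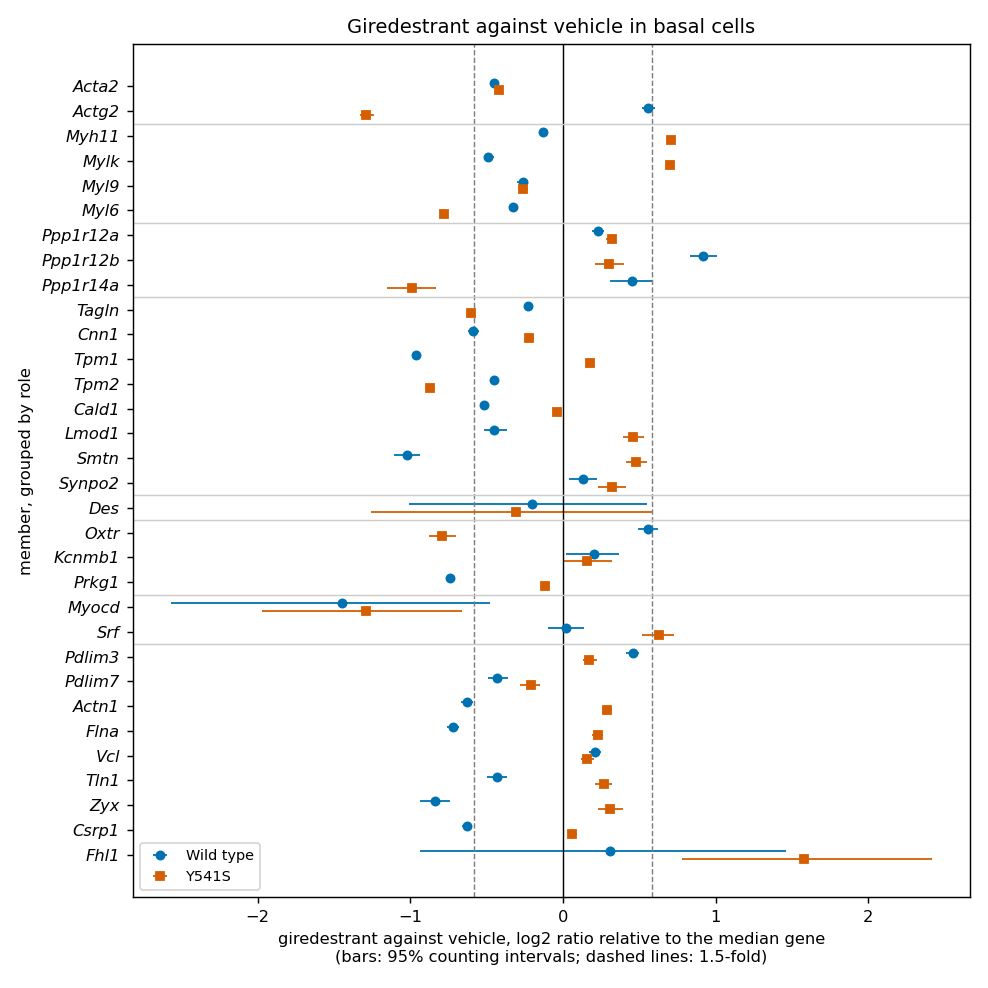
Log2 ratio of giredestrant to vehicle in basal cells for the 32 members, relative to the median gene, in wild-type (circles) and Y541S mice (squares), with 95% counting intervals as bars and dashed lines at 1.5-fold. Smtn (-1.02 against 0.48), Mylk (-0.49 against 0.70) and Oxtr (0.56 against -0.79) lie on opposite sides of 0 in the 2 genotypes, and Myocd lies below the lower line in both.

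Between the vehicle libraries of the 2 genotypes, 3 of 32 members were higher in Y541S (9.38%) and 0 were lower, whereas 7.70% of all 17774 genes were higher and 12.3% lower. Those 3 were Actg2 at 1.22 (1.19 to 1.25), Myocd at 0.99 (0.53 to 1.46) and Ppp1r14a at 0.61 (0.49 to 0.72). Between the giredestrant libraries 13 members were higher in Y541S (40.6%) and 3 lower (9.38%), against 17.5% and 16.2% of 16487 genes. This comparison reuses the giredestrant libraries described above. The higher members were 3 thin filament genes (Tpm1, Lmod1, Smtn), 6 of the 9 adhesion genes (Actn1, Flna, Tln1, Zyx, Csrp1, Fhl1), Myh11, Mylk, Srf and Myocd. Several of these calls depended on the setting. Lmod1 and Tln1 were lost by class-total scaling, by gates at 20 per 10000, by thinning and against the median gene of the same span group, and Lmod1 also with equal weight per cell. Csrp1 was lost against the span group, where the median over all genes went from -0.13 in the shortest to 0.10 in the longest, which leaves 4 of the 9 adhesion genes. Thinning lost Fhl1 and Myocd as well. Mylk had a ratio of 1.12 (1.08 to 1.16), Smtn of 1.08 (0.99 to 1.17), Tpm1 of 1.02 and Zyx of 0.96 (0.85 to 1.07). The lower members were Oxtr at -1.27 (-1.36 to -1.18), Ppp1r14a at -0.80 (-0.97 to -0.62) and Actg2 at -0.60 (-0.65 to -0.55). Thinning lost Actg2 and Ppp1r14a, and Actg2 was also lost with equal weight per cell and without the highest doublet scores.

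Members that passed 1.5-fold in none of the 4 basal comparisons were Acta2, Myl9, Cald1, Des, Synpo2, Kcnmb1, Ppp1r12a, Pdlim3, Pdlim7 and Vcl. Myl9, the light chain that Mylk phosphorylates, was at 537, 495, 599 and 532 CPM in the order WT vehicle, WT giredestrant, Y541S vehicle and Y541S giredestrant. Caldesmon (Cald1), which restrains myosin on the filament, was at 1444, 1119, 1413 and 1459 CPM. The remaining ranges over the 4 libraries were 3340 to 4759 CPM for Tagln, 1634 to 2643 for Myl6, 393 to 563 for Cnn1, 92.5 to 135 for leiomodin 1 (Lmod1), 54.3 to 71.8 for synaptopodin 2 (Synpo2) and 15.4 to 23.2 for Kcnmb1. They were 313 to 438 for Ppp1r12a, 188 to 286 for Pdlim3, 123 to 149 for Pdlim7, 371 to 630 for Actn1, 283 to 409 for vinculin (Vcl), 135 to 197 for talin 1 (Tln1) and 608 to 916 for Csrp1.

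To compare cells at equal depth, each cell was thinned to 2000 UMIs. Oxtr was then seen in 15.8% of basal cells in WT vehicle (exact binomial interval 14.8 to 16.9), 26.9% in WT giredestrant (24.2 to 29.7), 17.6% in Y541S vehicle (16.2 to 19.0) and 9.90% in Y541S giredestrant (8.93 to 10.9). The order matched the CPM, and the share in secretory cells was 5.43%, 3.35%, 5.11% and 0.896%. Without thinning, at median depths of 10304, 17980, 12013 and 5553 UMIs, the basal shares were 51.9%, 82.8%, 59.0% and 27.3%. Actg2 was seen in 23.6%, 37.2%, 50.5% and 28.9% of thinned basal cells (51.7%, 74.8%, 80.6% and 47.4% without thinning), against 0.669% to 2.12% of thinned secretory cells. Thinning left out 41, 8, 11 and 330 basal cells of under 2000 UMIs.

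The program varied between basal cells of the same library. The summed UMIs of 8 contractile genes (Acta2, Tagln, Myh11, Cnn1, Myl9, Tpm2, Mylk, Actg2), a set chosen after their levels were known, had a median of 27 per 2000 in WT vehicle, 24 in WT giredestrant, 32 in Y541S vehicle and 26 in Y541S giredestrant. The middle 50% of cells ran from 16 to 42, 14 to 35, 21 to 46 and 14 to 39 in the same order. Within a library Acta2 went with Tagln most closely of the genes examined here: Spearman's rank correlation over cells was 0.68, 0.63, 0.66 and 0.66. It was 0.50 to 0.59 with Tpm2 and between 0.01 and 0.07 with Oxtr. With Myh11 it was 0.20, 0.29, 0.16 and 0.38, and with Mylk 0.24, 0.28, 0.24 and 0.47, so the Y541S giredestrant library stood highest for both. These are descriptions over cells of 1 library at equal depth, and sparse genes give low values. Prkg1, which is abundant, ran from -0.17 to 0.13.

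**Figure D3:**
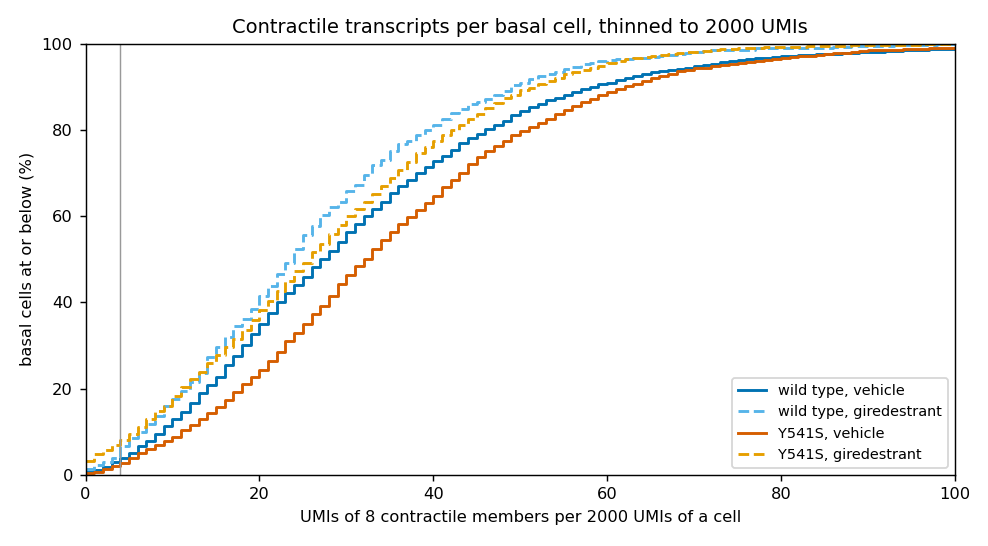
Share of basal cells (percent) at or below each number of UMIs of 8 contractile members per 2000 UMIs of the cell, 1 line per library, with a grey line at 4 UMIs. The median cell holds 24 to 32 of these UMIs, and 2.81% to 8.03% of cells hold 4 or fewer.

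A minority of basal cells held almost none of these transcripts. At 4 or fewer of the 8-gene UMIs, a cut set after seeing the values, stood 186 of 4793 cells in WT vehicle (3.88%, exact interval 3.35 to 4.47), 68 of 1008 in WT giredestrant (6.75%, 5.28 to 8.47), 82 of 2919 in Y541S vehicle (2.81%, 2.24 to 3.48) and 280 of 3485 in Y541S giredestrant (8.03%, 7.15 to 8.99). Near the cut, at 3 to 6 UMIs, lay 229, 71, 111 and 184 cells. In the low cells Acta2, one of the genes that define them, was at 211 to 421 CPM. The basal score, Krt5 plus Krt14 per 10000 UMIs, on which the class was gated, was lower in low than in other cells of every library, with medians of 25.2 against 42.0, 23.7 against 34.6, 22.7 against 34.1 and 27.4 against 37.7. The basal keratin Krt17 was also lower in each, at 2110 against 3495 CPM, 1162 against 2633, 1110 against 3012 and 1188 against 2380. The basal gene Trp63, by contrast, was higher in each, at 250 against 111 CPM, 184 against 111, 262 against 148 and 254 against 170. Krt5 alone was at 629 against 503, 1051 against 779, 311 against 481 and 550 against 676. Col17a1, a hemidesmosome collagen of basal cells, was at 691 CPM in low and 137 in other cells of WT giredestrant, 534 and 183 in Y541S giredestrant, 180 and 159 in WT vehicle, and 189 and 145 in Y541S vehicle. Of the members outside the 8, Tpm1 was lower in low cells of each library, at 844 against 1514 CPM, 544 against 867, 799 against 1308 and 1357 against 1610. Zyx was at 59.1 against 86.6, 14.7 against 45.7, 18.3 against 69.3 and 109 against 90.2, from 22, 2, 3 and 61 UMIs in low cells. Vcl was at 317 against 272, 566 against 347, 323 against 324 and 623 against 362. Prkg1 was at 3277 against 2792, 2449 against 1877, 4579 against 2542 and 1804 against 2545, lower in low cells of Y541S giredestrant only. Genes picked out after seeing the low cells differed by library only in part. Lgals3 was higher in low cells of each library, at 72.6 against 6.08 CPM, 103 against 4.79, 159 against 10.4 and 302 against 10.6. In the same order the stress keratin Krt6a was at 72.6 against 3.04, 44.1 against 0.532, 0 against 2.29 and 1052 against 24.3. The extracellular matrix protein Tnc was at 304 against 11.3, 44.1 against 9.04, 0 against 7.23 and 26.8 against 6.08. Some values rest on few UMIs, such as 6 for each of Krt6a and Tnc in low cells of WT giredestrant. Low cells had fewer UMIs in every library, with medians of 8754 against 10424, 9832 against 18558, 7672 against 12179 and 5539 against 5996. Their median mitochondrial share was higher in each, at 2.18% against 2.06%, 2.93% against 2.15%, 2.82% against 2.19% and 2.69% against 2.60%. In Y541S giredestrant their median hormone-sensing score was 2.81 per 10000 against 0, and in the other libraries both medians were 0. The median secretory score was 0 in low and other cells of every library. The secretory marker Wfdc18 was nevertheless higher in low cells of each, at 167 against 46.1 CPM, 213 against 30.9, 817 against 111 and 98.2 against 59.6. The part of depth, RNA quality or other cell types in the low state was not tested.

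Hormone-sensing cells that also held Krt14 were 44, 23, 113 and 1125 cells in WT vehicle, WT giredestrant, Y541S vehicle and Y541S giredestrant, which is 13.0% of the last library. Acta2 in them was at 2321, 1856, 2511 and 648 CPM, or 33.1%, 32.7%, 32.2% and 10.5% of the basal level of the same library. The first 3 libraries were alike and the last was lower. A set of 13 members largely restricted to smooth muscle (Acta2, Actg2, Myh11, Mylk, Tagln, Cnn1, Myl9, Tpm2, Lmod1, Synpo2, Oxtr, Kcnmb1, Ppp1r14a; chosen after their values were seen) had a median of 37.4%, 35.1%, 34.2% and 10.6% of the basal level. In Y541S giredestrant these 13 ran from 8.78% to 13.4%. Tpm1 went the other way, at 697, 580, 677 and 1536 CPM, which is 91.7% of the basal level in the last library and 45.5% to 66.2% in the others. Srf, Vcl and Zyx were above the basal level there, at 181%, 174% and 175%, and Smtn was at 72.2%. Vcl was also above the basal level in WT vehicle (143%), and Zyx in WT giredestrant (105%) and Y541S vehicle (111%).

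Against Y541S vehicle, 16 of the 30 members measured in this class were lower in Y541S giredestrant and 7 higher, 76.7% in all where 48.1% of all genes passed either way. Ppp1r14a had a relative log2 ratio of -3.00 (-3.84 to -2.22), Actg2 of -2.77 (-2.97 to -2.57) and Acta2 of -1.91 (-1.96 to -1.87). Srf had 1.80 (1.53 to 2.08), from 32.3 to 109 CPM. Fhl1 was counted 93 times at 8.23 CPM in Y541S giredestrant, 1 time in each wild-type library and 0 times in Y541S vehicle. Against the WT giredestrant library 24 of 30 members (80.0%) passed either way, 13 lower and 11 higher, with 48.4% of all genes, and Oxtr had a ratio of -2.45 (-3.01 to -1.87). Giredestrant against vehicle in wild type gave 14 of 28 (all genes 34.5%), and the genotypes under vehicle 1 of 29 (3.45%, all genes 24.7%), both from under 120 cells a library. The comparisons with Y541S giredestrant also rest on few reference cells, 113 in Y541S vehicle and 23 in WT giredestrant.

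Doublets are 2 cells read as 1. The cells with the highest Scrublet doublet scores were taken up to 0.8% per 1000 cells. They made up 63.6%, 60.9%, 85.0% and 17.4% of hormone-sensing cells with Krt14 in the 4 libraries, against 0.886% to 6.68% of basal cells. The counts and ratios given above for this class include these cells. After their removal 16, 9, 17 and 929 cells were left. In the 929 cells of Y541S giredestrant Acta2 was at 0.659% of the basal level and the median of the 13 members at 0.873%, while Tpm1 was at 102%, Srf at 204%, Zyx at 204%, Vcl at 200% and Krt14 at 65.8%. Other basal genes split as well: Krt15 was at 393%, Col17a1 at 225% and Trp63 at 86.7% of the basal level, whereas Pdpn was at 3.25% and Krt5 at 10.6%. In the other libraries too few cells were left to read a level.

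**Figure D4:**
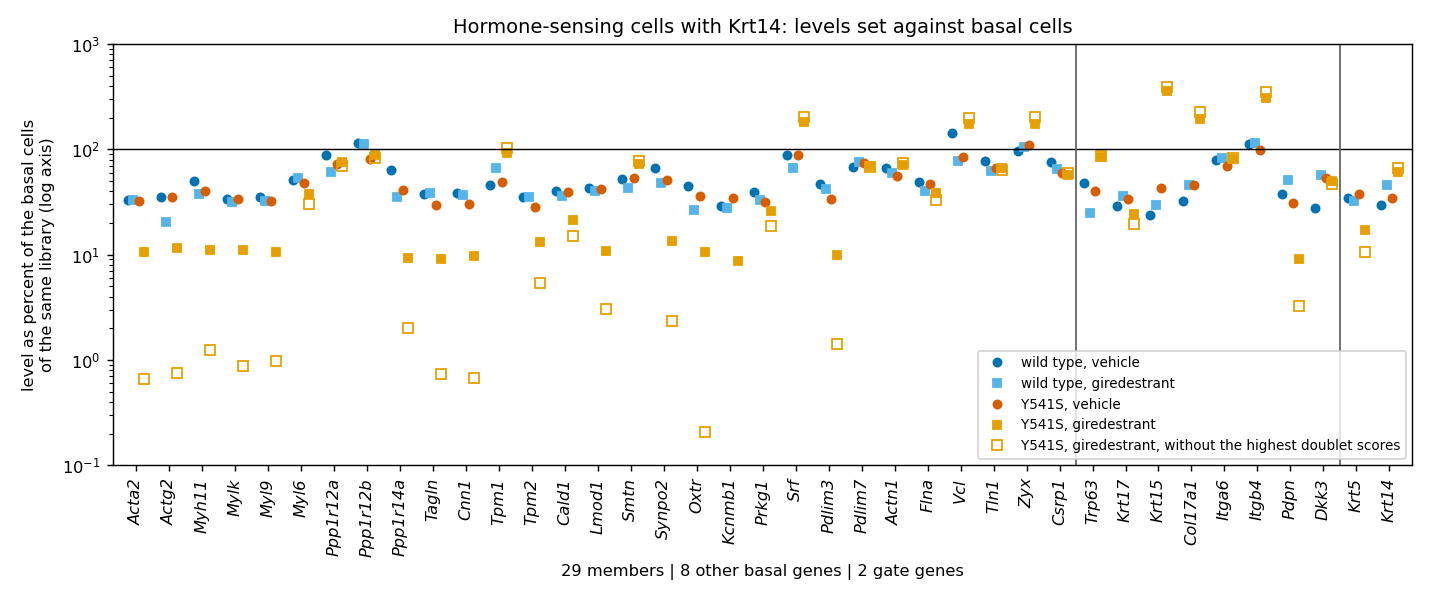
Level in hormone-sensing cells with Krt14 as percent of the basal cells of the same library, on a log axis, for the 29 members with 1000 or more basal UMIs, 8 other basal genes and the 2 gate genes; open squares leave out the highest doublet scores (Kcnmb1, at 0 there, is not drawn). In Y541S giredestrant Acta2 is at 10.5% and drops to 0.659% without those cells, and Srf, Vcl, Zyx, Krt15, Col17a1 and Itgb4 lie above 100.

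In hormone-sensing cells without Krt14 the smooth muscle restricted members were nearly absent. The 13 had medians of 0.588%, 0.337%, 0.347% and 0.834% of the basal level, and Acta2 was at 33.0, 10.4, 15.8 and 35.0 CPM. Synpo2, an actin-bundling protein of the Z disc and dense bodies, stood apart from the rest at 11.3 CPM in WT vehicle, 1.23 in WT giredestrant, 11.6 in Y541S vehicle and 3.37 in Y541S giredestrant. The 2 vehicle libraries were alike, at 19.1% and 21.3% of their basal level, and both giredestrant libraries were lower, at 1.72% and 4.69%. The relative log2 ratios with giredestrant were -3.64 (-4.10 to -3.21) in wild type and -2.11 (-2.53 to -1.72) in Y541S. In basal cells Synpo2 stayed within 1.5-fold in both. Acta2 was at 0.183% to 0.567% of the basal level in the same cells. The part of free RNA in the Synpo2 level was not tested.

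Other members were well expressed in hormone-sensing cells without Krt14. Vcl was at 397, 273, 340 and 423 CPM, Myl6 at 768, 700, 726 and 431, and Tpm1 at 185, 309, 261 and 511. Prkg1 was at 26.2, 41.1, 30.0 and 141 CPM, highest in Y541S giredestrant. The nuclear RNA Malat1 was also highest there, at 26090, 16228, 15314 and 45487 CPM, and its bearing on Prkg1 was not tested. Of the 30 members measured, 20 passed 1.5-fold either way with giredestrant in wild type (66.7%, all genes 43.9%), 19 in Y541S (63.3%, all genes 46.5%), 10 between genotypes under vehicle (33.3%, all genes 23.1%) and 21 between genotypes under giredestrant (70.0%, all genes 46.0%). Many of these are at the near-absent level given above. Myh11, for example, was at 5.93, 0.965, 2.73 and 12.5 CPM, with a ratio of 3.70 (3.22 to 4.21) between genotypes under giredestrant. Oxtr was at 0.118 to 1.53 CPM and Fhl1 at 0.269 to 3.37.

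Secretory cells carried Acta2 at a low level, and as percent of the basal level the 4 libraries stood in the same order for Acta2 and Krt14. In WT vehicle, WT giredestrant, Y541S vehicle and Y541S giredestrant, Acta2 was at 402, 102, 226 and 224 CPM, which is 5.74%, 1.80%, 2.90% and 3.63% of the basal level, and Krt14 was at 6.92%, 1.59%, 3.24% and 4.72%. Cells that also passed another class's gate, basal or hormone-sensing, were 8.79%, 19.0%, 10.7% and 9.10% of secretory cells. Of these 66, 143, 188 and 134 cells, 48, 12, 51 and 60 were also in the basal class. Without any cells passing 2 gates Acta2 was at 1.74%, 0.553%, 0.907% and 1.18%. Oxtr stood in another order, at 24.8, 11.4, 22.2 and 3.32 CPM, or 27.0%, 7.59%, 23.4% and 5.68% of the basal level. The 2 vehicle libraries were alike and both giredestrant libraries were lower. Without cells passing 2 gates, Oxtr was at 23.3%, 8.03%, 23.3% and 3.40%. The relative log2 ratio with giredestrant was -2.75 (-3.22 to -2.32) in Y541S.

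**Figure D5:**
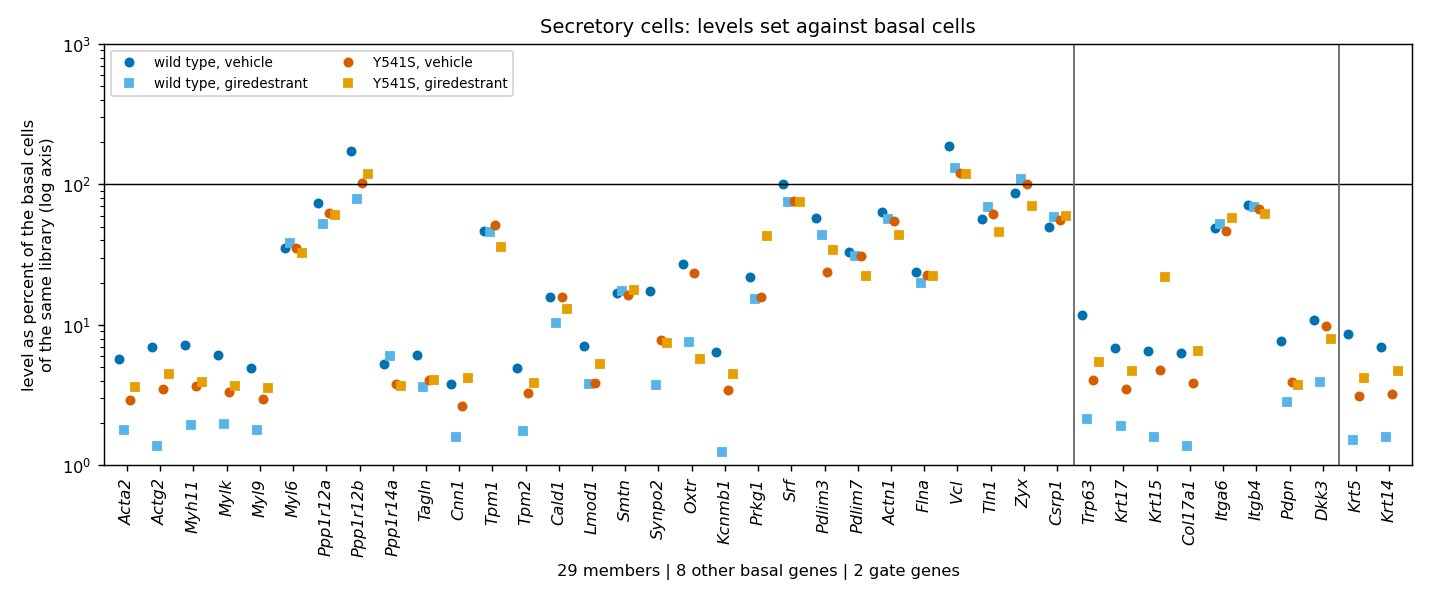
Level in secretory cells as percent of the basal cells of the same library, on a log axis, for the same genes. Acta2 lies at 1.80% to 5.74% and Krt14 at 1.59% to 6.92%, whereas Oxtr lies at 27.0% and 23.4% in the vehicle libraries and at 7.59% and 5.68% in the giredestrant libraries.

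Prkg1 in secretory cells was at 642, 297, 417 and 1106 CPM, lowest in WT giredestrant and highest in Y541S giredestrant. Malat1 in these cells was at 12881, 9717, 7901 and 19987 CPM, and its bearing on Prkg1 was not tested. The Z-disc protein Pdlim3 was at 109, 126, 53.1 and 90.5 CPM, or 23.9% to 57.8% of the basal level. Over the class, 18 of 28 members passed 1.5-fold with giredestrant in wild type (64.3%, all genes 25.7%), of which 17 were lower, Acta2 by -2.04 (-2.11 to -1.97). In Y541S 14 of 30 passed (46.7%, all genes 34.7%), 6 lower and 8 higher. Between genotypes 8 of 30 passed under vehicle (26.7%, all genes 19.7%) and 19 of 29 under giredestrant (65.5%, all genes 38.4%). Krt14 and the number of secretory cells also in the basal class, given above, differed between the same libraries. The part of basal transcripts in these counts was not tested.

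Genes of the surrounding pathways were counted in basal cells against the same 1.5-fold. Of 19 genes of oxytocin and calcium signalling, 2 were lower and 0 higher with giredestrant in wild type (Itpr3, Ano1), and 0 lower and 1 higher in Y541S (the calcium-activated potassium channel Kcnma1). The lists are short, and of all genes 14.7% were lower and 14.8% higher in wild type, and 12.2% and 14.4% in Y541S. Calmodulin 2 (Calm2) was at 684, 607, 679 and 690 CPM and the calcium pump Atp2a2 at 292, 290, 310 and 413. Of 7 cyclic GMP genes, 0 were lower and 1 higher in wild type, and 1 was lower and 2 higher in Y541S. Pde3a, a phosphodiesterase, was at 8.64, 30.0, 32.4 and 9.17 CPM. It was higher in WT giredestrant and Y541S vehicle than in the other libraries, as was Ppp1r14a, and a link between them was not tested.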

How the data were processed

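The authors deposited unnormalized UMI counts for 4 libraries of sorted mammary cells, 1 per group, made with Cell Ranger 6.0.1 per the file headers, on GRCm38 per the submitters' processing notes. The annotation release and the handling of intronic reads are not given in the sources used here. The deposited feature and barcode lists hold text, and 52489 of 52636 gene identifiers were found in GENCODE M21, the source of positions.

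A barcode counted as a cell from 1000 UMIs and 500 genes upwards, provided that mitochondrial UMIs did not exceed 15%, which left 25950 of 30062. Total kept UMIs per library ranged from 68609077 to 131706189. Counts were summed per class and library, given as CPM, and compared as ratios with exact conditional binomial 95% intervals, after subtracting the median log2 ratio of genes with 20 or more counts over both libraries. Levels near 0 used a floor of 3 counts, and no ratio is given where both libraries were at or under it. Intervals cover counting error only. Doublets stay in the main values, and Scrublet scores (Scanpy 1.11.5) were used for a removal as an alternative. The ratio procedure was tested on simulated data.

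All 32 members are accounted for. Levels are given for members with 20 or more basal UMIs, ratios for those past 1.5-fold (up to 12 per basal comparison, up to 4 per other class, with further examples picked after their values were seen). For other lists up to 4 members with the most basal UMIs are examples, and genes called are named where few. The members and lists were chosen with earlier results of these data known. Alternatives were TMM scaling (edgeR 4.0.16), scaling by class total, equal weight per cell, thinning, no count filter, other gates, and leaving out doublet-like cells, cells passing 2 gates or cells with 2 or more pericyte UMIs. A reference by gene span was added after seeing the data. The result of 1 pathway list is not reported here.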

Additional observations from a re-analysis of the deposited data

Results flagged for a closer look

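In basal cells 7 members had a giredestrant ratio of opposite sign in the 2 genotypes, with counting intervals clear of 0 in each, and a difference of 1 or more on the log2 scale. The difference between genotypes, Y541S minus wild type, was -1.85 for Actg2, -1.43 for Ppp1r14a and -1.34 for Oxtr, which were higher with giredestrant in wild type and lower in Y541S. It was 1.51 for Smtn, 1.18 for Mylk, 1.15 for Zyx and 1.14 for Tpm1, which were lower in wild type and higher in Y541S. The share of all genes meeting the same rule was not computed, so whether 7 members is an unusual number was not tested. With 1 library per group the differences between genotypes were not tested, and each rests on 4 libraries that differ in depth. Of these 14 ratios some lie within 1.5-fold: in wild type Actg2 (0.56), Oxtr (0.56), Ppp1r14a (0.45) and Mylk (-0.49), and in Y541S Smtn (0.48), Zyx (0.31) and Tpm1 (0.18).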

How the results depend on the processing

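No paired analysis was possible because each group is 1 library. Of 200 counts of members recomputed under 10 alternatives, 179 stayed within 1.5 times the value given above and 21 moved. Scaled by class total, members lower and higher with giredestrant in wild-type basal cells became 5 and 5, and those past 1.5-fold in hormone-sensing cells with Krt14 became 6. Higher members in wild-type basal cells became 2 with equal weight per cell, 2 with gates at 20 per 10000 and 4 with thinning. Thinning also gave 2 higher in Y541S basal cells with giredestrant, 1 lower between genotypes under giredestrant, 11 and 4 in hormone-sensing cells without Krt14 (giredestrant in wild type, genotypes under vehicle), 7 in those with Krt14 (giredestrant in wild type), and 11 and 12 in secretory cells (giredestrant in wild type, genotypes under giredestrant). Leaving out cells with 2 or more pericyte marker UMIs, a list that holds Notch3, gave 6 in hormone-sensing cells without Krt14 between genotypes under vehicle, and leaving out cells passing 2 gates gave 4 in secretory cells for the same comparison. The 1 member called between genotypes under vehicle in hormone-sensing cells with Krt14 became 7 with equal weight, 6 with thinning, 2 with no count filter, 7 with gates at 20, 16 without the highest doublet scores (17 Y541S and 16 wild-type cells left) and 5 without pericyte marker cells. Of the members' ratios recomputed, none of those called changed sign, 349 stayed within their counting interval and 106 moved beyond it. Of shares and levels as percent of basal, 24 stayed and 104 moved. After thinning Myocd and Fhl1 had too few counts for some ratios, which were not computed. For other changes the cause was not tested. Thinning leaves fewer counts, and the Y541S giredestrant library, at 5553 UMIs per basal cell, limits per-cell detection most.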
